A study of Rattus norvegicus with 8 samples.

Results

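The mRNA of 10 genes for lysosomal proteases, their extracellular inhibitor and osteoclast-type lysosomal proteins was followed after intimal injury of the rat carotid artery. These were Ctsk, Ctsl, Ctss, Ctsb, Ctsc, Ctsz, Ctsd, Cst3, Acp5 and Atp6v0d2, found by gene symbol among the 37209 genes of the count table, and all 10 had enough counts for the test. Male Sprague-Dawley rats, of an age not given in the sources used here, received balloon catheter injury of the left carotid artery, and both arteries were taken 2 weeks later. The 4 injured arteries were compared with 4 undamaged right carotid arteries, which came from operated animals and served as each animal's own control. RNA of the harvested arteries was sequenced. A change in the number of cells of a type, in the tissue taken along with the artery or in the RNA per cell therefore cannot be told apart. Levels are given as CPM, counts put on a shared library scale with TMM factors, and they are compared between arteries for 1 gene at a time, because CPM are not divided by gene length.

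Cathepsins are proteases that mature and act in the acidic lumen of lysosomes and can be secreted at sites of matrix turnover. Ctsk, Ctsl and Ctss encode the cysteine cathepsins best known for cleaving elastin and collagen, and in the vessel wall macrophages and smooth muscle cells are known sources of them. Osteoclasts use Ctsk together with tartrate-resistant acid phosphatase (Acp5) and a vacuolar proton pump with the d2 subunit (Atp6v0d2) to dissolve bone.

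The libraries held 13470754 to 15276952 counts in the control arteries and 11459632 to 16658089 in the injured arteries, so that 3 counts corresponded to 0.18 to 0.262 CPM (counting error only). Control artery 4 stood apart, with correlations of log2 CPM over genes of 0.83 to 0.852 to the remaining controls, against 0.976 to 0.978 among the latter. The 10 sympathetic neuron markers examined summed to 8743 CPM in control artery 4, to at most 20.7 CPM in the other controls and to 8.05 to 2281 CPM in the injured arteries, with the highest injured value in injured artery 3. The extraction text of the labels speaks of brain cortex, while the other labels name the carotid artery. Contractile smooth muscle markers were abundant in every library, with summed levels of 18830 to 54580 CPM in the controls and 11510 to 18100 CPM after injury. Nothing in the labels says which animal an artery number stands for, and p-values therefore measure the spread between these arteries only.

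Promoter windows of 300 bases, from 250 bases before to 50 bases after each annotated start, were found in RefSeq (rat assembly GRCr8) for 8 of the 10 genes. Acp5 had 2 windows, while Ctsb and Atp6v0d2 had no entry. On both strands, 3 motifs were searched. They were CACGTG, an E-box read by the MiT/TFE factors that act on lysosomal genes, GAGGAA, a purine-rich core of the kind bound by PU.1 and other ETS factors, and TGANTCA, a site of the AP-1 factors. The E-box was present in 6.42% of all 33469 windows, GAGGAA in 27.6% and TGANTCA in 7.33%. Among the 8 genes, the window of Ctsd alone held the E-box, with 2 copies that each read the same on both strands. GAGGAA was present in Ctsk, Ctss, Ctsc and Ctsz, once each, and TGANTCA in none. The 5 windows with a motif are shown 5′ to 3′ on the strand of the gene, because they include 4 genes called higher after injury and 1 that was not called. Capitals mark the E-box in Ctsd and GAGGAA or its reverse complement in the others.
Ctsk, chr2:185747298-185747597, + strand: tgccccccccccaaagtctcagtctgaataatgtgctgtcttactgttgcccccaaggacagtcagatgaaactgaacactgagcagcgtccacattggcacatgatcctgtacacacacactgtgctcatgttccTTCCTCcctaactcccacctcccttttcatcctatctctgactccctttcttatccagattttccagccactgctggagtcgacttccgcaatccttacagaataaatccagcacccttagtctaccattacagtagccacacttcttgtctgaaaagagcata
Ctss, chr2:185775146-185775445, + strand: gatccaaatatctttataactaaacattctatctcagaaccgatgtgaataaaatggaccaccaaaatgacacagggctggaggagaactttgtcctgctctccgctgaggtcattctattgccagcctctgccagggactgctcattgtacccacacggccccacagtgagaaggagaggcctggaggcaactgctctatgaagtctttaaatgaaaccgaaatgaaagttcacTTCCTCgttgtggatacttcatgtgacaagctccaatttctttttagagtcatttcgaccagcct
Ctsc, chr1:151440799-151441098, + strand: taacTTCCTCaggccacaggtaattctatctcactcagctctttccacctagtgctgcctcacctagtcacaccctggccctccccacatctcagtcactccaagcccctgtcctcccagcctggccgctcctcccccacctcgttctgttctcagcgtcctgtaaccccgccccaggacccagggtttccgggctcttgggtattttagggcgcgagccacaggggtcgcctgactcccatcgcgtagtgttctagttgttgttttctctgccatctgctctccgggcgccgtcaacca
Ctsz, chr3:183653798-183654097, - strand: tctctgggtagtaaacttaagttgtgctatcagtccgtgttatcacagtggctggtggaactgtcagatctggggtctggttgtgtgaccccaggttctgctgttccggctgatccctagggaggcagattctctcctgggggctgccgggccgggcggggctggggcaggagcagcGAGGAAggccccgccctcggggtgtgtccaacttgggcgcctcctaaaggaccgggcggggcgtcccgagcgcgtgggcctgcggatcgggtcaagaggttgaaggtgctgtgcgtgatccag
Ctsd, chr1:206968772-206969071, - strand: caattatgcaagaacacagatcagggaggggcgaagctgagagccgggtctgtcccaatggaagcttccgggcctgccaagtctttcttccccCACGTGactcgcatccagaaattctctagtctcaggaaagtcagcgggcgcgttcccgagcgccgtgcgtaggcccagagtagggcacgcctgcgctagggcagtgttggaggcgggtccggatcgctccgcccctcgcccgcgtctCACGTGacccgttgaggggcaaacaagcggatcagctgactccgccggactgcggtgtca
A motif match is a description of the letters and was not tested for function.

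Injured arteries were compared with control arteries by edgeR's quasi-likelihood test over 14359 genes, and a gene was called at a Benjamini-Hochberg adjusted p under 0.05 together with a fold change above 2. Of the 10 genes, 6 were called higher after injury, namely Ctsk, Ctss, Ctsc, Ctsz, Acp5 and Atp6v0d2. None was called lower, and Ctsl, Ctsb, Ctsd and Cst3 were not called. Among all genes tested, 8.31% were called higher and 2.57% lower. In 7 of the 10 genes, the 6 called ones and Ctsb, every injured artery lay above every control artery, which was the case for 14.2% of all genes tested. The median log2 fold change of the 10 genes was 1.26, compared with -0.0571 over all genes tested. Without control artery 4, again 6 of the 10 were called higher, against 12.3% of the 14758 genes then tested.

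**Figure D1:**
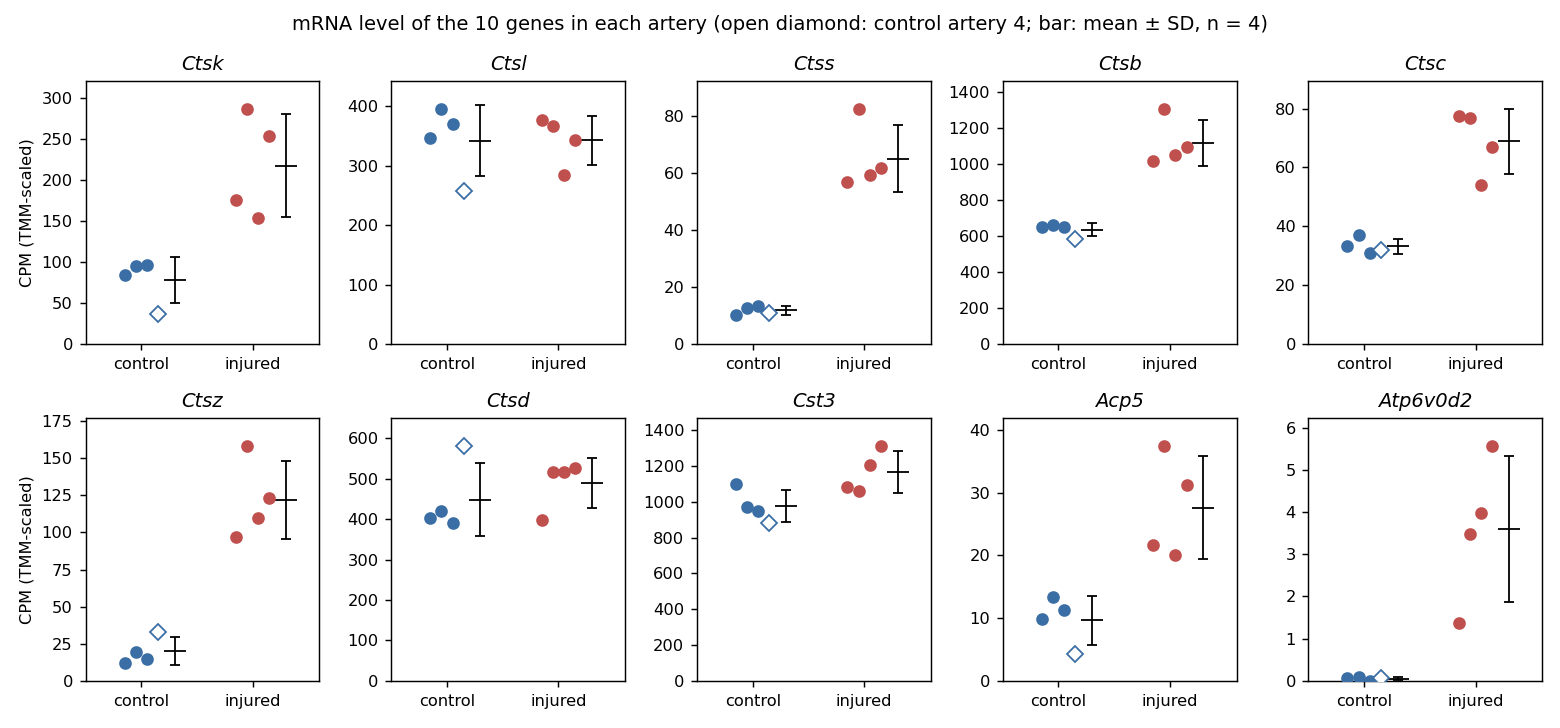
TMM-scaled CPM (vertical axis, linear from 0, one scale per panel) of each of the 10 genes in the 4 control and 4 injured arteries. Points are arteries, the open diamond is control artery 4, and bars give the mean ± SD. The groups are separated for 7 genes and overlap for Ctsl, Ctsd and Cst3.

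The elastolytic cysteine cathepsins did not move together. Ctsk, the main collagen- and elastin-degrading cathepsin of osteoclasts, had 83.6, 94.9, 96.7 and 36.4 CPM in control arteries 1 to 4 and 175.8, 286.0, 153.3 and 253.6 CPM in injured arteries 1 to 4. Control artery 4 was clearly the lowest control, and all injured arteries lay above all controls. The mean level was 77.9 ± 28.3 CPM (SD, n = 4) in the controls and 217.2 ± 62.9 CPM (SD, n = 4) after injury, which gave a log2 fold change of 1.48 ± 0.338 (standard error, SE) with an adjusted p of 0.0208 in edgeR's quasi-likelihood test. Without control artery 4 the log2 fold change was 1.24 (adjusted p = 0.00515 from edgeR), and the CV of the controls fell from 36.3% to 7.71%. The call was lost when control artery 1, injured artery 2 or injured artery 4 was left out (adjusted p = 0.0536, 0.0654 and 0.0681 from edgeR), and also with the replicate number as a block (adjusted p = 0.0708).

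Ctss encodes the cathepsin of antigen-presenting cells that trims the invariant chain and, unlike most of its relatives, keeps its activity at neutral pH. Its level was 10.1, 12.8, 13.4 and 11.1 CPM in the control arteries and 56.8, 82.3, 59.3 and 61.5 CPM in the injured arteries. The groups were far apart, and control artery 4 lay within the range of the other controls. With means of 11.8 ± 1.52 CPM (SD, n = 4) and 65.0 ± 11.7 CPM (SD, n = 4), Ctss rose by 2.46 ± 0.166 (standard error) on the log2 scale (adjusted p = 0.000225, edgeR). The call held in each of the 8 fits that left out 1 artery.

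Ctsl, a broadly expressed lysosomal endopeptidase, had 345.7, 394.7, 369.3 and 257.4 CPM in the control arteries and 375.8, 365.9, 284.0 and 343.6 CPM in the injured arteries. The groups overlapped over most of their range, and the lowest value was that of control artery 4. The means were 341.8 ± 59.7 and 342.3 ± 41.2 CPM (SD, n = 4 each), the log2 fold change was 0.0023 (± 0.167 SE, adjusted p = 0.994, edgeR), and the exact two-sided permutation test over the 70 relabellings gave p = 0.914. Without control artery 4 the log2 fold change was -0.12 (adjusted p = 0.498 from edgeR).

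Of the other cysteine cathepsins, Ctsz and Ctsc were called and Ctsb passed the adjusted p but not the fold change. Ctsz, a carboxypeptidase common in monocytes and macrophages, had 12.2, 19.5, 14.8 and 33.2 CPM in the control arteries and 97.0, 158.3, 109.5 and 122.9 CPM in the injured arteries. Here control artery 4 was the highest control, at 2.15 times the mean of the others, and still lay far below every injured artery. Ctsz rose by a log2 fold change of 2.61 (± 0.332 SE, adjusted p = 0.00174, edgeR) with all arteries and by 2.97 without control artery 4.

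Ctsc, the dipeptidyl peptidase that activates the serine proteases of leukocyte granules, had 33.2, 36.9, 31.1 and 31.9 CPM in the controls and 77.3, 76.9, 54.1 and 67.1 CPM after injury. The controls were tightly grouped, and the lowest injured value, in injured artery 3, was clear of them. The log2 fold change of 1.05 (± 0.137 SE, adjusted p = 0.00199, edgeR) lay just above the fold criterion. It fell below 1 when injured artery 1 or 2 was left out, with values of 0.987 and 0.992.

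Ctsb, an abundant lysosomal cysteine protease with endopeptidase and exopeptidase activity, had 648.6, 662.0, 647.9 and 581.5 CPM in the controls and 1017, 1302, 1050 and 1095 CPM after injury. All injured arteries lay above all controls, and the controls other than control artery 4 differed little, with a CV of 1.22%. The log2 fold change was 0.81 (± 0.135 SE, adjusted p = 0.00553, edgeR), so that Ctsb was higher by the adjusted p alone and was not called.

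Ctsd, the aspartic cathepsin and a classical lysosomal marker, had 403.1, 419.8, 389.5 and 581.3 CPM in the controls and 397.9, 515.8, 517.0 and 527.7 CPM after injury. The highest value of all was that of control artery 4, and injured artery 1 lay among the lower controls. The log2 fold change was 0.13 (± 0.174 SE, adjusted p = 0.662, edgeR) and 0.27 without control artery 4 (adjusted p = 0.128 from edgeR). The exact two-sided permutation test over all 8 arteries gave p = 0.457.

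Cst3 encodes cystatin C, the main secreted inhibitor of cysteine cathepsins. Its level was 1099, 968.3, 950.1 and 883.4 CPM in the controls and 1081, 1062, 1208 and 1312 CPM after injury. Control artery 1 lay above injured arteries 1 and 2, and the groups overlapped. The log2 fold change of 0.26 (standard error 0.14) did not pass the test, with an adjusted p of 0.257 from edgeR and p = 0.0857 from the exact two-sided permutation test.

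Both osteoclast-type genes were called. Acp5, the phosphatase used as a histological marker of osteoclasts and also made by activated macrophages, had 9.87, 13.3, 11.3 and 4.24 CPM in the controls and 21.7, 37.4, 20.1 and 31.3 CPM after injury. Control artery 4 was the lowest control and the injured arteries were ordered as for Ctsk. The log2 fold change was 1.51 (± 0.364 SE, adjusted p = 0.0252, edgeR) and 1.26 without control artery 4 (adjusted p = 0.00725 from edgeR). The call was lost without control artery 1 or 3 or injured artery 2 or 4 (adjusted p of 0.0573 to 0.0792 from edgeR) and with the replicate block (adjusted p = 0.0647).

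Atp6v0d2, the d2 subunit of the proton pump, had 1, 1, 0 and 1 counts in the control arteries and 23, 48, 71 and 68 counts in the injured arteries. All control values were below the floor of 3 counts, and all injured values were well above it, at 1.38 to 5.56 CPM. From 3 counts over the controls and 210 over the injured arteries, the ratio of the pooled shares was 71.9, with an exact 95% interval of 24.3 to 351.5 that covers counting error only. The adjusted p was 0.00117 from edgeR's test, and its fitted log2 fold change of 5.83 depends on the prior count. The gene passed the filter only through its counts in the injured arteries. With at least 10 counts required in every library, Atp6v0d2 was not tested. The call held in each of the 8 fits that left out 1 artery.

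For each of the 7 genes without overlap, the exact two-sided permutation test of log2 CPM gave p = 0.0286, the smallest p that 4 arteries against 4 allow. This value follows from the separation itself and adds nothing to it. The relabellings also ignore any pairing of arteries within animals. Injured artery 2 had the highest injured level for 5 of the 10 genes, and injured artery 1 the lowest for 5.

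**Figure D2:**
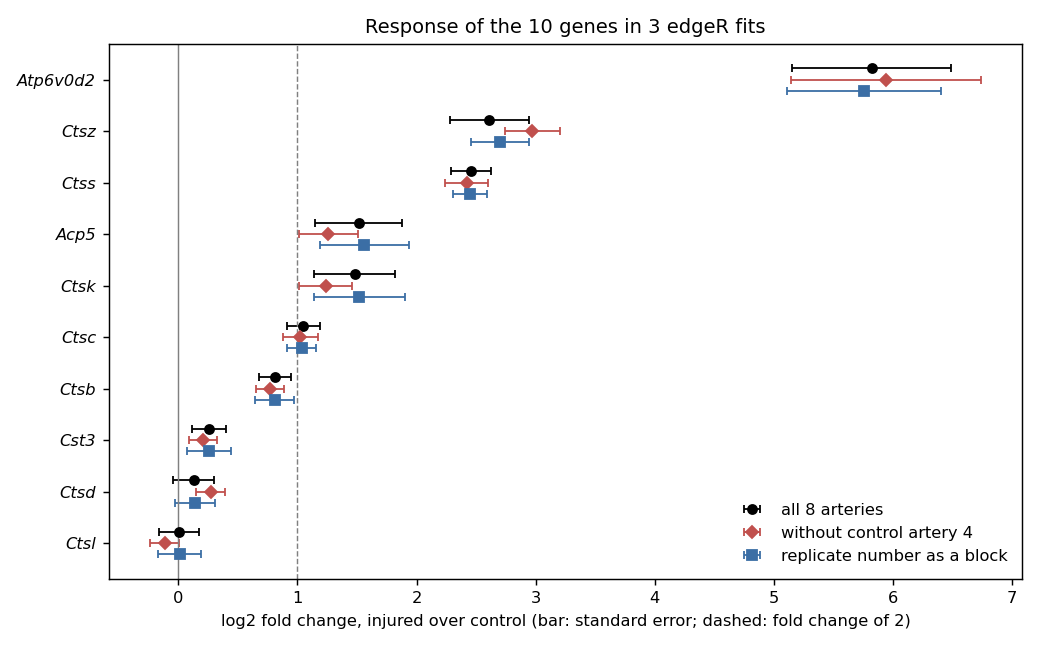
Log2 fold change of injured over control arteries (horizontal axis; bars are standard errors) of the 10 genes in 3 edgeR fits, with all 8 arteries, without control artery 4 and with the replicate number as a block. The dashed line marks a fold change of 2. The order from Atp6v0d2 down to Ctsl is nearly the same in each fit, with Ctsz moving most between them (2.61 with all arteries and 2.97 without control artery 4).

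Within arteries, Acp5 and Ctsk kept a near constant proportion. The ratio of Acp5 counts to Ctsk counts was 0.118, 0.14, 0.117 and 0.116 in the controls and 0.124, 0.131, 0.131 and 0.123 in the injured arteries, although the level of Ctsk ranged from 36.4 to 286.0 CPM. Control artery 4, the lowest in both genes at 0.397 times the mean of the other controls for Ctsk and 0.369 times for Acp5, did not stand apart in this ratio. The pair was chosen after its values were seen. Measured as the root mean square difference of gene-centred log2 CPM over the 8 arteries, it was the closest of the 45 pairs of the 10 genes, at 0.0835, and the next, Ctsb and Ctsc, was at 0.191. By contrast, the ratio of Ctss to Ctsk counts was 0.121, 0.135, 0.138 and 0.303 in the controls and 0.323, 0.288, 0.387 and 0.243 after injury, with control artery 4 among the injured values.

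The proportions of protease to inhibitor transcripts also differed between the groups. The summed counts of the 6 cysteine cathepsins relative to those of Cst3 were 1.03, 1.26, 1.24 and 1.08 in the controls and 1.67, 2.14, 1.42 and 1.48 in the injured arteries, without overlap. For Ctsk alone the ratio to Cst3 averaged 0.0793 ± 0.0278 (SD, n = 4) in the controls and 0.188 ± 0.0606 (SD, n = 4) after injury, and for Ctsl it overlapped between the groups. The ratio of Ctsb to Ctsd counts was 1.58 to 1.66 in control arteries 1 to 3, 1.00 in control artery 4 and 2.03 to 2.56 in the injured arteries. Ctsl contributed 30.3% ± 2.32 (SD, n = 4) of all cysteine cathepsin counts in the controls and 17.8% ± 2.14 (SD, n = 4) after injury, whereas the share of Ctss went from 1.06% ± 0.124 to 3.35% ± 0.23 and that of Ctsz from 1.86% ± 1.11 to 6.27% ± 0.653. The share of Ctsb overlapped between the groups, with means of 57.0% and 57.9%. These ratios are descriptions without a test. They compare mRNA and not the amounts or the activity of the proteins, and because counts are not divided by gene length only their differences between arteries can be read.

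**Figure D3:**
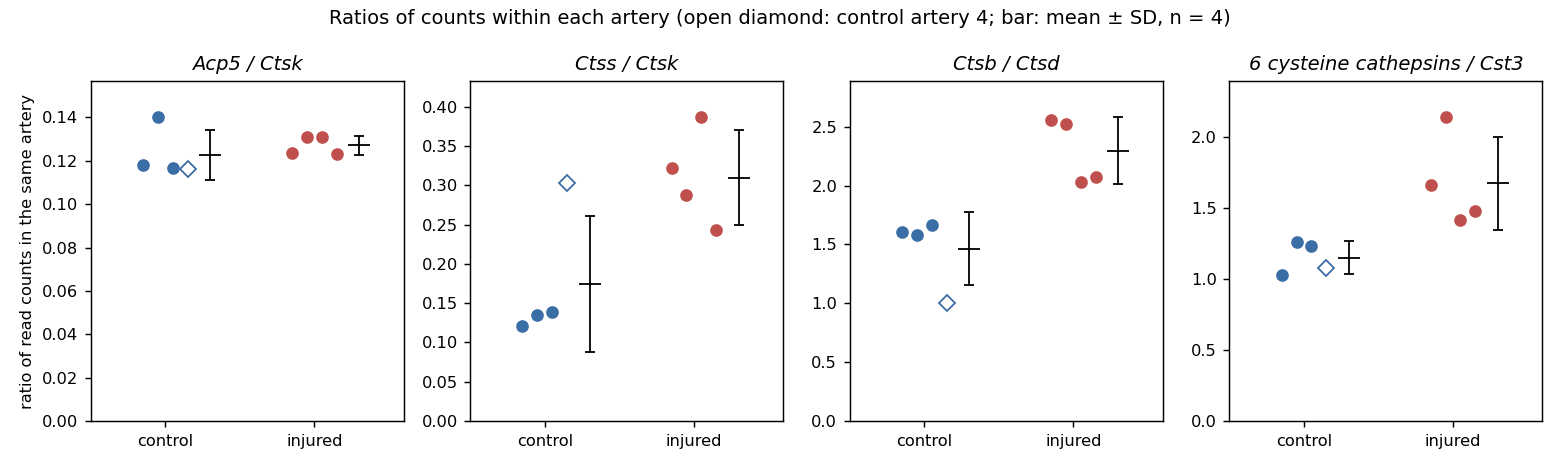
Ratios of read counts within each artery (vertical axes, linear from 0) for Acp5 to Ctsk, Ctss to Ctsk, Ctsb to Ctsd and the 6 cysteine cathepsins to Cst3, by group. Points are arteries, the open diamond is control artery 4, and bars give the mean ± SD. Acp5 to Ctsk stays between 0.116 and 0.14 in all 8 arteries, and the last ratio is 1.03 to 1.26 in the controls and 1.42 to 2.14 after injury.

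The 2 other genes whose pattern over the 8 arteries was closest to each member were listed by the same root mean square measure, over genes with enough counts for the test. For Ctsk these were Col6a3, a chain of type VI collagen (0.132), and the macrophage marker Cd14 (0.157), and for Acp5 they were Ch25h, a cholesterol hydroxylase (0.144), and the fibroblast marker Fap (0.166). The genes closest to Ctss were Ptafr (0.0728) and C5ar1 (0.0871), both receptors of inflammatory mediators on leukocytes. For Ctsz they were Aspm (0.156) and Cxadr (0.209), for Ctsb Ifnar2 (0.0667) and Aldh16a1 (0.0776), and for Ctsc LOC102555399 (0.121) and Ppp1r14b (0.143). Ctsl was closest to Alkbh1 (0.0413) and Stag1 (0.0431), Ctsd to Ppp1ca (0.0639) and Arpc3 (0.0654), Cst3 to LOC679963 (0.0662) and Dbn1 (0.0717), and Atp6v0d2 to Cldn4 (0.326). A small value can also come from 2 genes that hardly vary, as for Ctsl.

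The summed levels of macrophage, skeletal muscle and contractile smooth muscle markers separated the groups, and those of fibroblast and endothelial markers overlapped. Over all genes tested, 8.31% were called higher and 2.57% lower. Of 12 macrophage markers, 11 were called higher. Their summed level was 205.1 to 304.4 CPM in the controls, with 254.1 CPM in control artery 4, and 1807 to 2704 CPM after injury. Of 10 contractile smooth muscle markers, 7 were called lower and none higher. This became 3 lower with the replicate block, 9 without control artery 4 and 0 without injured artery 4. Leaving out any other single artery gave 2 or 3. The 369 lower calls over all genes likewise became 234 with the replicate block, 581 without control artery 4 and 197 without injured artery 4. Fibroblast markers were mixed, with 2 of 8 called higher and 2 lower. Their sum was 2467 CPM in control artery 4, against 4506 to 5192 CPM in the other controls and 2677 to 4374 CPM after injury. Control artery 4 was also the lowest control in the sums of contractile smooth muscle (18830 CPM, against 40670 to 54580 CPM), endothelial and skeletal muscle markers. Among 8 endothelial markers, 3 were called higher and 1 lower. Their sum was 857.6 CPM in control artery 4, 1295 to 2309 CPM in the other controls and 813.6 to 1160 CPM after injury. Of 9 skeletal muscle markers, 7 were called higher, with sums of 84.6 to 253.4 CPM in the controls and 308.1 to 1129 CPM after injury. The part of these markers in the levels of the 10 genes was not tested.

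The wider lysosomal and osteoclast machinery was examined in 7 lists of 145 symbols. The lists were drawn up by function but with earlier results of these data known. Their shares of called genes are therefore descriptions and not independent support. Of the 110 genes tested, 18 were called higher (16.4%, against 8.31% of all genes) and 2 lower (all genes: 2.57%). Their median log2 fold change was 0.0617. Without control artery 4, 25 pathway genes were called in place of 20, while the calls over all genes went from 1562 to 2398. The list medians were 0.46 for other cathepsins, 1.55 for cysteine protease inhibitors, -0.54 for V-ATPase subunits, 0.36 for osteoclast genes, 0.27 for hydrolases, 0.0962 for membrane and sorting proteins and 0.31 for the MiT/TFE factors. Genes named here with an adjusted p above 0.05 or a fold change under 2, or beyond the 3 largest changes of a list, were chosen after their values were seen.

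Among 13 other cathepsins, 5 had enough counts and 1 was called, or 2 with Ctse when control artery 1 or 4 was left out. Ctsw, a cathepsin of cytotoxic lymphocytes, had 0 to 0.209 CPM in the controls and 5.26, 5.44, 1.74 and 2.29 CPM in the injured arteries (log2 fold change 4.99, adjusted p = 0.0055 from edgeR). Ctse, an aspartic protease of immune cells, had a log2 fold change of 2.64 with an adjusted p of 0.0513 from edgeR (0.0175 without control artery 1 and 0.0484 without control artery 4), and Ctsa had one of 0.46 (adjusted p = 0.0841 from edgeR). Ctsf and Ctsh had log2 fold changes of -0.0448 and 0.0016. Of 16 cysteine protease inhibitors, 4 had enough counts. Cst7, the cystatin F of leukocytes, which acts inside lysosomes on Ctsc, rose from 0.347 to 0.834 CPM in the controls to 7.13 to 12.9 CPM after injury (log2 fold change 3.88, adjusted p = 0.000483 from edgeR). Ctla2a, an inhibitor that resembles a cathepsin propeptide, rose by a log2 fold change of 1.22 (adjusted p = 0.00674 from edgeR), and Cstb had a log2 fold change of -0.04. Cst6, cystatin E/M, had 0, 0.082, 0 and 9.31 CPM in the controls and 2.99, 4.50, 5.39 and 21.9 CPM in the injured arteries. It was not called with all arteries (log2 fold change 1.88, adjusted p = 0.471 from edgeR) and passed the test without control artery 4, the only control above the floor (adjusted p = 0.00299 from edgeR).

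The proton pump that acidifies lysosomes was represented by 19 tested V-ATPase subunits, of which Tcirg1 alone was called with all arteries. Tcirg1, the a3 subunit of the osteoclast ruffled border, had 23.4 to 50.7 CPM in the controls and 76.1 to 101.0 CPM after injury (log2 fold change 1.11, adjusted p = 0.0137 from edgeR), and without control artery 4 its log2 fold change of 0.92 was no longer called. Atp6v1b2, a B subunit with 690.4 CPM in control artery 4, 38.4 to 45.3 CPM in the other controls and 55.9 to 162.4 CPM after injury, had a log2 fold change of -1.15 (adjusted p = 0.487 from edgeR) with all arteries and was called higher without control artery 4 (1.17, adjusted p = 0.0379 from edgeR). Atp6v0d1, the ubiquitous counterpart of Atp6v0d2, had 129.8, 128.7, 130.3 and 266.4 CPM in the controls and 92.2 to 155.2 CPM after injury, and was not called. The median log2 fold change of the subunits was -0.54 with all arteries and 0.0217 without control artery 4, in which the subunits summed to 3361 CPM against 1126 to 1197 CPM in the other controls.

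Of 16 osteoclast genes tested, 7 were called higher (43.8%, against 8.31% of all genes) and none lower, and 10 had a positive log2 fold change. Clcn7 (log2 fold change 0.25), Plekhm1 (0.15), Itgb3 (-0.12), Slc9b2 (-0.17), Ostm1 (-0.31), Car2 (-0.61) and Snx10 (-1.20) were not called. Snx10 was highest in control artery 4, and its log2 fold change was 0.07 without that artery. Mmp9, the gelatinase that osteoclasts and macrophages secrete, went from 0 to 0.277 CPM in the controls to 3.05, 21.0, 21.0 and 15.7 CPM after injury. Gpnmb, a glycoprotein of osteoclasts and lipid-laden macrophages, went from 19.6 to 40.6 CPM in the controls to 210.0, 697.4, 362.1 and 706.9 CPM (log2 fold change 3.88, adjusted p = 0.00131 from edgeR). The receptor Trem2 and its adaptor Tyrobp rose by log2 fold changes of 3.37 and 3.20 (adjusted p = 0.000697 and 0.000226 from edgeR), and Tnfrsf11a, the receptor RANK, by 2.29. Spp1 and Mmp14 were also called, with log2 fold changes of 1.55 and 1.28, but lost their calls with the replicate block (adjusted p = 0.143 and 0.0632 from edgeR) and in most fits that left out 1 artery. The fusion gene Dcstamp and the RANK ligand Tnfsf11 had 0 counts in all 8 libraries, below the floor of 3 counts, and the calcitonin receptor Calcr had at most 0.164 CPM. Nfatc1, the transcription factor of osteoclast differentiation, had a log2 fold change of 0.48 (adjusted p = 0.047 from edgeR) and stayed under the fold criterion. Tnfrsf11b, the decoy receptor of RANK ligand, had a log2 fold change of -1.47 (adjusted p = 0.105 from edgeR) and of -1.73 without control artery 4 (adjusted p = 0.0278 from edgeR), and it was called lower with the replicate block (adjusted p = 0.0191 from edgeR).

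Most lysosomal hydrolases changed by less than a fold of 2. Of 37 tested, 3 were called higher (8.11%, against 8.31% of all genes), namely Prcp (log2 fold change 1.36), Lipa, the acid lipase for cholesteryl esters (1.26), and the glucuronidase Gusb (1.19). The hyaluronidase Hyal1 was called lower (-1.11). In 15 of the 37, every injured artery lay above every control, which held for 2043 of all 14359 genes tested (14.2%). By the adjusted p alone, 10 of the 37 were higher and 2 lower, against 1550 and 918 of the 14359. The calls of Lipa and Hyal1 (adjusted p = 0.0452 and 0.0475 from edgeR) were kept without control artery 4 and lost when any other single artery was left out, and that of Hyal1 was lost with the replicate block as well. Lipa was at 70.4 CPM in control artery 4 against 26.5 to 28.5 CPM in the other controls. The cysteine protease Lgmn, which processes cathepsin precursors, had a log2 fold change of 0.96 (adjusted p = 0.00522 from edgeR). Without control artery 4, Lgmn was called higher (1.06, adjusted p = 0.00132 from edgeR). The list of lysosomal membrane and sorting proteins also held lipid transfer proteins such as Gm2a. Of its 26 tested genes, 3 were called higher (11.5%, against 8.31% of all genes) and 1 lower. Those called higher were the phagosomal metal transporter Slc11a1 (log2 fold change 5.12), the leukocyte protein Laptm5 (3.23) and the lipid transfer protein Gm2a (1.40). The sorting receptor Sort1 was called lower (-1.10). Of the MiT/TFE factors, Tfec rose by a log2 fold change of 2.27 (adjusted p = 0.0161 from edgeR) and was not called without injured artery 4 (adjusted p = 0.054 from edgeR). Tfeb had a log2 fold change of 0.31 and Mitf one of -0.0077. The E-box of these factors was present in 5 of 24 promoter windows of the hydrolases (20.8%) and in 7 of 24 of the membrane and sorting proteins (29.2%), compared with 6.42% of all windows and 1 of the 9 windows of the 10 genes. The other lists held it in 16.7% of windows for cysteine protease inhibitors, 10% for V-ATPase subunits, 9.09% for other cathepsins, 8.33% for osteoclast genes and 0% for the MiT/TFE factors.

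**Figure D4:**
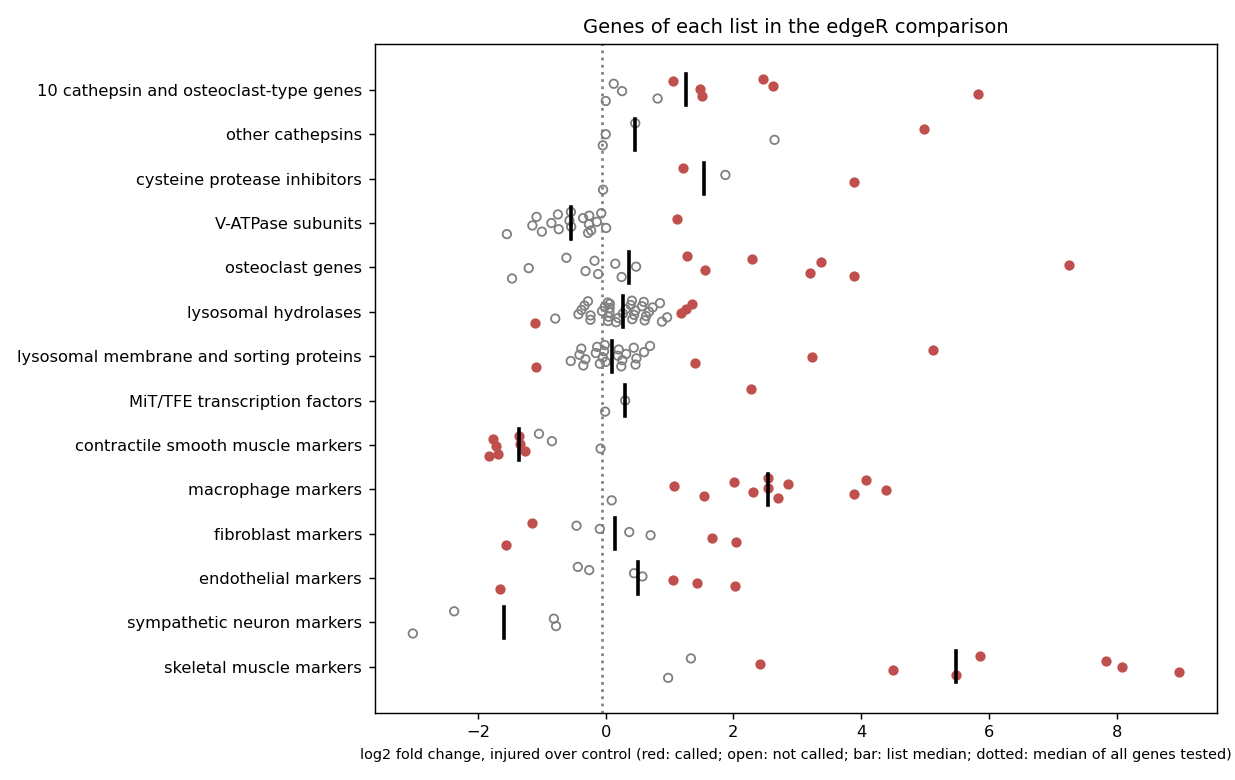
Log2 fold change of injured over control arteries (horizontal axis) for the tested genes of each list, with called genes in red, others open, the list median as a bar and the median of all genes tested (-0.0571) dotted. The 10 genes lie between 0.0023 and 5.83, the V-ATPase subunits mostly below 0, and 11 of 12 macrophage markers are called higher.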

How the data were processed

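The authors sequenced mRNA of 8 rat carotid arteries and deposited whole-number read counts per gene symbol, without normalization. The submitters' processing notes name HISAT2 version 2.0.4, while the counting tool, its strand setting and the genome build are not given in the sources used here. From these counts, genes were filtered with filterByExpr, scaled with TMM factors and tested with the quasi-likelihood test of edgeR 4.0.16 in R 4.3.3, with Benjamini-Hochberg adjustment over 14359 genes. Calls needed an adjusted p under 0.05 and a fold change above 2, the criteria of the study, which used DESeq. Single levels were also compared by exact two-sided permutation of log2 CPM (prior count 2) over 70 relabellings. The procedure was tested on simulated data, which held no library that stood apart and no pairing of arteries. DESeq2 1.42.0, other scalings, filters and thresholds, a replicate block and leaving out each artery were run as alternatives. The genes and lists were chosen with earlier results of these data known. Named genes are the 10 genes, up to 3 called genes of each list by size of change, and the 2 genes closest to each member, of which 1 is not reported here. Further genes of the lists were named after their values were seen, as stated beside them. Of 202 list symbols, 199 matched the table, 2 of them by a synonym. No libraries were identical within sampling noise. With 11459632 to 16658089 counts per library, levels below 3 counts, 0.18 to 0.262 CPM, were not detectable.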

Additional observations from a re-analysis of the deposited data

Results flagged for a closer look

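In 6 of the 48 groups of 4 arteries examined, over the levels of the 10 genes and the ratios and shares between them, 1 artery lay far from the others, and chance alone would give about 2.4 such groups. For Ctsd in the controls, control artery 4 had 581.3 CPM and the next artery 419.8 CPM, a gap of 0.842 of the range of the group. For Ctsd in the injured arteries, injured artery 1 had 397.9 CPM and the next 515.8 CPM, a gap of 0.908 of the range. For Atp6v0d2 in the controls, control artery 3 had 0 CPM and the next 0.0695 CPM, a gap of 0.847 of the range, although all of these values are at most 1 count. Among the ratios, control artery 4 stood apart for Ctsb to Ctsd, at 1.00 against 1.58 in the next artery (0.869 of the range), and for Ctss to Ctsk, at 0.303 against 0.138 (0.903 of the range). Control artery 2 stood apart for Acp5 to Ctsk, at 0.14 against 0.118 (0.933 of the range), within a narrow range of values.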

How the results depend on the processing

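The count of 6 called genes was 3 in a test against a fold change of 2, 4 with the replicate block and 3 to 6 when 1 artery was left out, lowest without injured artery 2. DESeq2, the other scalings and the analysis without a filter each gave 6. With at least 10 counts required in every library it was 5, because Atp6v0d2 was then not tested. The call of Ctsc rests on the fold criterion, and those of Ctsk and Acp5 on which arteries enter. Same-numbered arteries deviated from their group means with correlations of 0.301, 0.45, -0.52 and -0.416, and 2 of 4 injured arteries correlated best with their own number. These values cannot decide the pairing, because control artery 4 and injured artery 3, highest in sympathetic neuron markers, carry different numbers. The numbers were not taken as pairs because the labels do not say which animal each stands for. The log2 fold change of Ctsl turned to -0.0155 with DESeq2, -0.011 with RLE factors and -0.0089 without a filter, and lay between -0.12 and 0.0785 when 1 artery was left out. Over all genes, the 1562 calls became 1007 with at least 10 counts in every library, 2468 by the adjusted p alone, 661 in the test against a fold change of 2 and 1142 to 2398 when 1 artery was left out, highest without control artery 4. Leaving out 1 artery gave 2 to 5 called hydrolases in place of 4, 5 to 9 osteoclast genes in place of 7, 1 or 2 other cathepsins in place of 1, and 0 or 1 of the MiT/TFE factors. The 20 pathway genes became 34 by the adjusted p alone, 9 in the test against a fold change of 2 and 15 to 25 when 1 artery was left out. Filters and thresholds change the number of genes that can pass, and for the other changes the cause was not tested. Library totals without factors moved the median of all genes by 0.176 on the log2 scale and the share of higher calls from 76.4% to 85.1%, and changed no call among the 10 genes.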

Other observations

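Of 609 genes matched to the X chromosome of GRCr8 by symbol, 595 (97.7%) had 0 counts in every library, against 9.63% of 16023 autosomal genes and 4.61% to 15.1% on single autosomes. None of the 10 genes lies on the X chromosome, but 6 genes of the lysosomal lists do, and 5 of them, Atp6ap1, Atp6ap2, Gla, Lamp2 and Tfe3, are listed at 0. Because Lamp2 and Atp6ap1 belong to the housekeeping equipment of lysosomes, a 0 in the table says nothing of their expression in these arteries. Why they are at 0 was not tested. The level of Hyal1, one of the 2 pathway genes called lower, was at 72.7 to 80.2 CPM in control arteries 1 to 3, at 28.0 CPM in control artery 4 and at 25.8 to 37.6 CPM after injury.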
